A study of Homo sapiens with 12 samples.

Results

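The amino acid stress genes described here are 10 genes placed under the transcription factor ATF4, out of 23273 genes listed for COLO858 and for MMACSF, both melanoma lines. They are ATF4, ATF5, DDIT3, TRIB3, CHAC1, SESN2, ASNS, PSAT1, PHGDH, and MTHFD2, found by their symbols, and all 10 were present in both tables. The genes were chosen from measured levels and changes in these same 12 libraries. Their values and their position relative to a threshold are therefore a description and carry no test.

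RNA was sequenced from cells in DMSO and from cells kept for 24 or 48 h in 0.2 μM vemurafenib, an inhibitor of mutant BRAF, to ask which genes change as the cells adapt to the drug. Both lines are established cultures. The study took COLO858 as the line entering a slowly cycling adapted state and MMACSF as its comparison. Each line had 2 replicate libraries in DMSO, 2 after 24 h and 2 after 48 h.

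The labels carry no time for the DMSO cells, so both drug times were set against the same pair of DMSO libraries. All cells were plated a day earlier and received fresh medium with drug or solvent. COLO858 grew in RPMI medium, whereas MMACSF grew in DMEM/F12 and was plated more densely, so cell line, medium, and density cannot be told apart. Replicates were separate plates of 1 line, and p-values measure only the spread between such plates. Values are FPKM, fragment counts scaled by transcript length and library size. How library size was measured is not given in the sources used here. Read depth is unknown, and the tables of the lines may have been scaled separately.

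The integrated stress response begins with kinases that sense uncharged tRNA, unfolded proteins, heme shortage, or double-stranded RNA and phosphorylate the translation factor eIF2. General translation then slows, while upstream open reading frames in the ATF4 mRNA let ribosomes reach the ATF4 coding sequence. ATF4 protein is thus set largely by translation and is not read from its mRNA level. The protein pairs with C/EBP factors at composite C/EBP-ATF elements and switches on amino acid transporters, aminoacyl-tRNA synthetases, and enzymes of amino acid synthesis.

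Targets of the inhibited pathway were lower in both lines. SPRY4 and DUSP6, feedback inhibitors transcribed downstream of ERK, fell at both times, although the DUSP6 call in COLO858 at 48 h, at −0.93, was lost with 0.1 FPKM added or with genes of every level tested. The log2 fold-change of SPRY4 in COLO858 was −4.82 ± 0.12 (SE) at 24 h and −4.90 ± 0.12 at 48 h. In MMACSF it was −3.57 ± 0.14 and −2.76 ± 0.14. The largest limma adjusted p among these 4 values was 0.000504. Of 8 melanocyte lineage markers, 7 reached 1 FPKM in some group of COLO858 and 8 in MMACSF, with summed levels of 702 to 4158 FPKM and 11160 to 17555 FPKM. Of these markers, MLANA and TYR stayed below 1 FPKM or close to it in COLO858. Of 4 leukocyte and 3 endothelial markers, 0 reached 1 FPKM in either line, with CD3E at 0 in every library. Keratinocyte markers reached that level for 1 of 5, with KRT5 and KRT1 at 0. Fibroblast markers reached 1 FPKM for 4 of 6 in COLO858 and 3 of 6 in MMACSF. They summed to 8.47 to 34.1 FPKM in COLO858 and 20.2 to 79.3 FPKM in MMACSF. The small RNA gene MIR4461 took 14.1% to 43.4% of the FPKM of a library and was higher in replicate 2 of every group.

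Matches to the core of the composite element are shown first, because ATF4 is known to bind that element. The RefSeq promoter table, of build GRCh38.p14, held 10 of 10 genes, each as a window of 300 bases from 250 before to 50 after the start. Each window matched GRCh37 at 1 place, and positions below are on GRCh37. The windows were searched on both strands for TGATGNAA, the core of the element, whose reverse complement is TTNCATCA. It was found in 2 of 10 windows, against 3.62% of all 35116 promoters in the table. The capitals below mark the match, and each line is given 5′ to 3′ on the strand of the gene.
CHAC1: cccctgccgTTGCATCActcctgcca
ASNS: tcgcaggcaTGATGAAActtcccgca
The CHAC1 stretch lies at chr15:41245451-41245476 on the plus strand, with the match 209 to 202 bases before the start. The ASNS stretch lies at chr7:97501772-97501797 and is read from the minus strand, with the match 68 to 61 bases before the start. These starts are those of the RefSeq table. The GENCODE spans of both genes given further on reach farther upstream, so both matches lie inside them. A match describes these letters in this window and is not a measured binding site.

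ATF4 mRNA went opposite ways in COLO858 and MMACSF. In COLO858 it stood at 461 and 485 FPKM in DMSO, at 227 and 248 after 24 h, and at 222 and 230 after 48 h. In MMACSF it stood at 242 and 220 FPKM in DMSO, at 279 and 280 after 24 h, and at 439 and 439 after 48 h. Every treated library of COLO858 lay below its DMSO libraries and every treated library of MMACSF above them. The mean in COLO858 was 1.99-fold lower at 24 h and 2.10-fold lower at 48 h, with log2 fold-changes of −0.99 ± 0.11 and −1.06 ± 0.11. In MMACSF the log2 fold-change was 0.27 ± 0.10 at 24 h and 0.92 ± 0.10 at 48 h, the latter a mean 1.90-fold higher. From 24 to 48 h the level in COLO858 overlapped, whereas in MMACSF it went up by 0.65 on the log2 scale without overlap. The gene lies at chr22:39915700-39918688 on the plus strand.

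**Figure D1:**
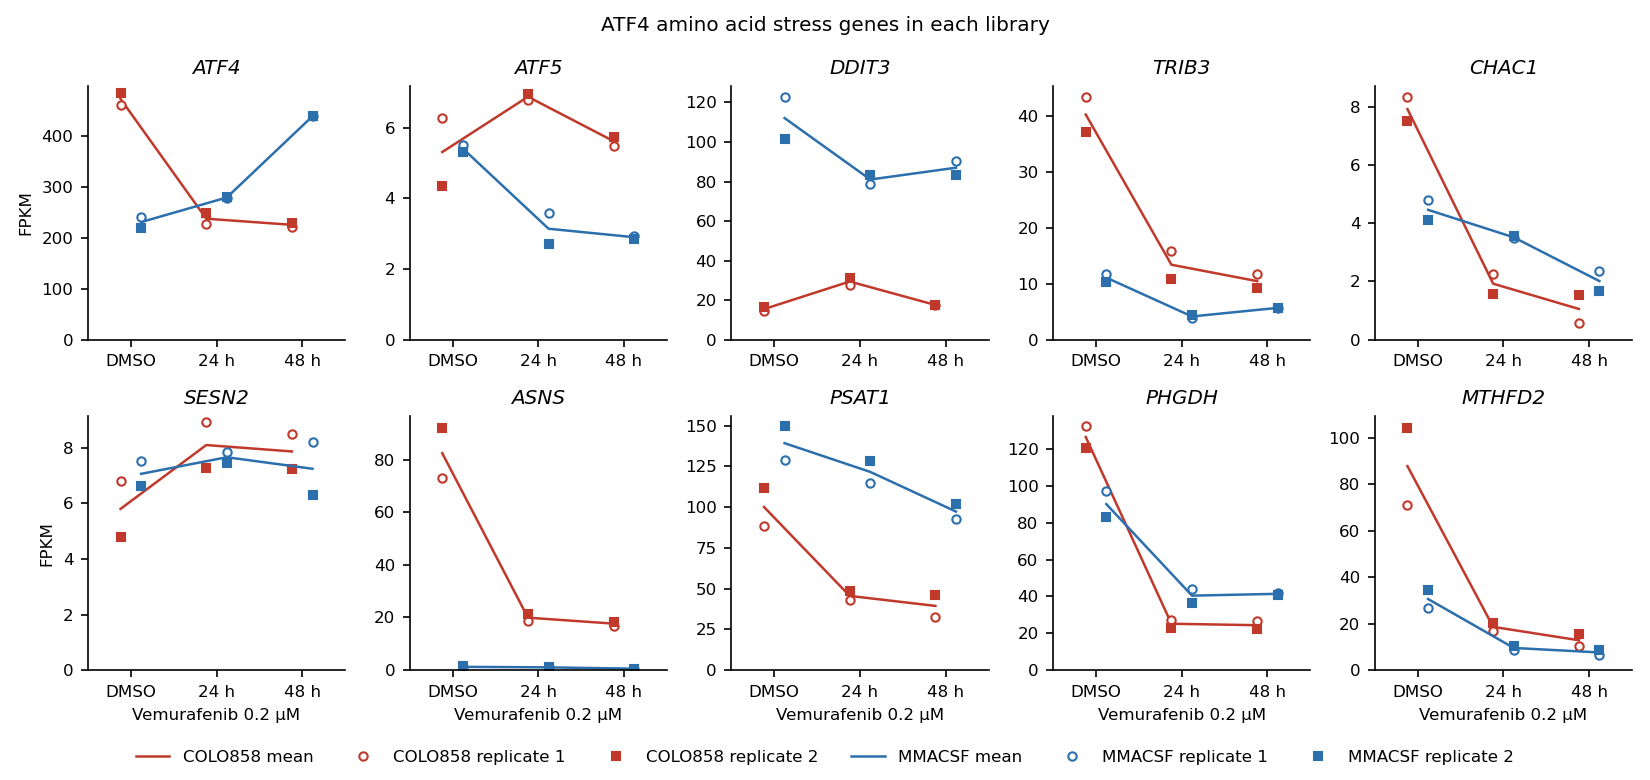
FPKM of each of the 10 genes (vertical axes, each from 0) in DMSO-treated cells and at 24 and 48 h of 0.2 μM vemurafenib (horizontal axes). Open circles are replicate 1, filled squares replicate 2, and lines join the means of COLO858 (red) and MMACSF (blue); ATF4 in COLO858 goes from 461 and 485 FPKM to 222 and 230, while in MMACSF it reaches 439 in both replicates.

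ATF5, a related factor that is also controlled by translation and acts in mitochondrial stress, was low in both lines. Its levels in COLO858 were 6.28 and 4.34 FPKM in DMSO, 6.79 and 6.97 after 24 h, and 5.49 and 5.75 after 48 h. In MMACSF they were 5.50 and 5.32, then 3.58 and 2.71, then 2.94 and 2.86 FPKM. The COLO858 groups lay close together and overlapped at 48 h, and the treated MMACSF libraries were all below DMSO. Its log2 fold-changes at 24 and 48 h were 0.34 ± 0.19 and 0.09 ± 0.19 for COLO858. For MMACSF they were −0.64 ± 0.16 and −0.72 ± 0.16, and 0 of these 4 values passed the threshold used for calls.

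DDIT3 encodes CHOP, a C/EBP family factor that ATF4 induces and that is tied to cell death under prolonged stress. COLO858 held 14.6 and 16.4 FPKM in DMSO, 27.9 and 31.0 after 24 h, and 17.4 and 17.8 after 48 h. MMACSF held 123 and 101 FPKM in DMSO, 79.0 and 83.1 after 24 h, and 90.4 and 83.5 after 48 h. The lines thus differed in level, as far as the tables share a scale. They also differed in direction, with a peak at 24 h in COLO858 and values under DMSO at both times in MMACSF. The log2 fold-change of DDIT3 in COLO858 was 0.88 ± 0.14 at 24 h and 0.17 ± 0.14 at 48 h, and in MMACSF −0.46 ± 0.13 and −0.36 ± 0.13. These changes within a line all missed the threshold, as did the difference between the lines at 48 h. The gene, at chr12:57910371-57915520 on the minus strand, shares 982 bases with MARS1 and 1028 with MBD6 on the opposite strand. Libraries were made with a stranded kit, but the strand setting of the counting is not given in the sources used here. The methionyl-tRNA synthetase gene, listed as MARS, fell in COLO858 by 1.37 on the log2 scale at 24 h and by 1.11 at 48 h (limma adjusted p = 0.00238 and 0.00429).

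TRIB3 is a pseudokinase that ATF4 and CHOP induce and that feeds back to restrain ATF4. Its levels in COLO858 were 43.5 and 37.2 FPKM in DMSO, 15.9 and 10.9 after 24 h, and 11.8 and 9.22 after 48 h. In MMACSF they were 11.9 and 10.4 FPKM, then 3.96 and 4.39, then 5.69 and 5.73. All treated libraries of both lines lay below DMSO. The mean was 3.0-fold and 3.84-fold lower in COLO858 and 2.66-fold and 1.95-fold lower in MMACSF, at 24 and 48 h respectively. On the log2 scale the fold-changes were −1.54 ± 0.23 and −1.85 ± 0.23, against −1.23 ± 0.14 and −0.85 ± 0.14.

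TRIB1 and TRIB2 are the relatives of TRIB3. TRIB1, which directs C/EBPα to degradation, fell in COLO858 with log2 fold-changes of −1.17 ± 0.14 at 24 h (limma adjusted p = 0.00526) and −1.91 ± 0.14 at 48 h (limma adjusted p = 0.00155). In MMACSF the values of TRIB1 were −0.73 ± 0.12 and −0.14 ± 0.12 (limma adjusted p = 0.0136 and 0.438). TRIB2 rose in MMACSF by 0.95 ± 0.13 and 1.08 ± 0.13 (limma adjusted p = 0.00861 and 0.00504). In COLO858 TRIB2 had values of 0.00 ± 0.13 and −0.29 ± 0.13 (limma adjusted p = 0.983 and 0.156). The difference between the lines passed the threshold for TRIB2 at both times, by −0.95 and −1.37, and for TRIB1 at 48 h, by −1.78. The TRIB2 rise in MMACSF at 24 h lost its call when genes of every level were tested. Its difference at 24 h lost the call with 0.1 FPKM added and in each of the 8 fits that left out a library, whereas both differences at 48 h kept it in all 8.

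CHAC1 is a cytosolic enzyme that degrades glutathione and is among the most sensitive outputs of ATF4. COLO858 held 8.32 and 7.51 FPKM in DMSO, 2.27 and 1.58 after 24 h, and 0.567 and 1.55 after 48 h. MMACSF held 4.81 and 4.11 FPKM in DMSO, 3.48 and 3.56 after 24 h, and 2.36 and 1.67 after 48 h. Treated libraries lay below DMSO in both lines, with a wide spread between the COLO858 replicates at 48 h. The mean in COLO858 was 4.11-fold lower at 24 h and 7.49-fold lower at 48 h. Because 1 FPKM was added before taking logarithms, the log2 fold-changes of such a low gene are smaller, at −1.62 ± 0.27 and −2.16 ± 0.27 in COLO858 and −0.27 ± 0.18 and −0.86 ± 0.18 in MMACSF. Its relative CHAC2 had log2 fold-changes of −1.21 ± 0.19 and −0.78 ± 0.19 in COLO858, which missed the threshold. The value at 24 h passed it with 0.1 FPKM added, under rescaling, and without small RNA genes. In MMACSF CHAC2 fell by 2.06 on the log2 scale at 24 h (limma adjusted p = 0.00866) and had a value of −1.70 ± 0.28 at 48 h (limma adjusted p = 0.0118). That CHAC2 call was lost when 0.1 FPKM was added in place of 1 and when genes of every level were tested.

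SESN2 encodes a leucine sensor that restrains mTORC1 and is induced by p53 as well as ATF4. Its levels in COLO858 were 6.82 and 4.78 FPKM in DMSO, 8.92 and 7.27 after 24 h, and 8.50 and 7.23 after 48 h. In MMACSF they were 7.51 and 6.61, then 7.85 and 7.46, then 8.21 and 6.28 FPKM. The MMACSF groups overlapped at both times, and the COLO858 groups lay close without overlap. The log2 fold-changes of SESN2 were 0.43 ± 0.21 and 0.40 ± 0.21 for COLO858, and 0.11 ± 0.17 and 0.02 ± 0.17 for MMACSF. The family member SESN3, known as a target of FOXO factors, rose in both lines. Its log2 fold-changes were 2.14 ± 0.14 and 2.06 ± 0.14 in COLO858 (limma adjusted p = 0.00115 and 0.00126) and 1.45 ± 0.12 and 1.74 ± 0.12 in MMACSF (limma adjusted p = 0.00256 and 0.00113). SESN1, a p53 target, had values of 0.67 and 0.27 in COLO858 and 0.04 and 0.18 in MMACSF, which all missed the threshold.

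ASNS, which makes asparagine from aspartate and glutamine, had the widest gap between the DMSO means of the lines among the 10 genes, as far as the tables share a scale. COLO858 held 73.0 and 91.9 FPKM in DMSO, 18.5 and 21.3 after 24 h, and 16.9 and 18.5 after 48 h. MMACSF held 1.09 and 1.38 FPKM in DMSO, 1.04 and 1.02 after 24 h, and 0.570 and 0.509 after 48 h. The COLO858 libraries in drug lay well below DMSO, and MMACSF was near 1 FPKM throughout. The mean in COLO858 was 4.14-fold lower at 24 h and 4.67-fold lower at 48 h, with log2 fold-changes of −1.99 ± 0.17 and −2.15 ± 0.17. In MMACSF the log2 fold-changes were −0.13 ± 0.15 and −0.53 ± 0.15, on a scale that compresses a gene at this level. On FPKM the MMACSF mean was 1.19-fold and 2.28-fold lower. The gene lies at chr7:97480989-97501854 on the minus strand, with its match to the core of the composite element shown above.

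PHGDH catalyzes the first step of serine synthesis from a glycolytic intermediate, PSAT1 the second, and PSPH the last. PHGDH in COLO858 was at 132 and 121 FPKM in DMSO, 27.3 and 23.0 after 24 h, and 26.6 and 22.1 after 48 h. In MMACSF it was at 96.9 and 83.2 FPKM, then 44.3 and 36.5, then 41.9 and 40.8. In both lines the lower level was reached by 24 h, and the libraries of 24 and 48 h overlapped. The mean was 5.03-fold and 5.19-fold lower in COLO858 and 2.23-fold and 2.18-fold lower in MMACSF. This gave PHGDH log2 fold-changes of −2.29 ± 0.16 and −2.33 ± 0.16 for COLO858, and of −1.14 ± 0.15 and −1.10 ± 0.15 for MMACSF.

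PSAT1 in COLO858 was at 88.2 and 112 FPKM in DMSO, 42.7 and 48.3 after 24 h, and 32.6 and 46.2 after 48 h. In MMACSF it was at 129 and 150 FPKM, then 115 and 128, then 92.8 and 102. Treated libraries lay below DMSO in both lines, in MMACSF by a narrow margin at 24 h. Log2 fold-changes of PSAT1 were −1.11 ± 0.22 and −1.33 ± 0.22 for COLO858, and −0.19 ± 0.13 and −0.51 ± 0.13 for MMACSF, and all 4 missed the threshold. PSPH had values of −0.62 ± 0.17 and −0.97 ± 0.17 in COLO858 and −0.60 ± 0.12 and −0.69 ± 0.12 in MMACSF, with limma adjusted p between 0.0150 and 0.0526. The PSPH values at 48 h passed the threshold under rescaling in both lines, and in COLO858 also without small RNA genes.

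MTHFD2 is the mitochondrial folate enzyme that carries the serine-derived carbon unit on toward formate for nucleotide synthesis. COLO858 held 71.2 and 104 FPKM in DMSO, 17 and 20.2 after 24 h, and 10.3 and 15.4 after 48 h. MMACSF held 26.6 and 34.7 FPKM in DMSO, 8.65 and 10.4 after 24 h, and 6.58 and 8.60 after 48 h. Every treated library of both lines was below DMSO, and the 48 h libraries were below those of 24 h. The mean was 4.72-fold and 6.84-fold lower in COLO858 and 3.21-fold and 4.03-fold lower in MMACSF. MTHFD2 thus had log2 fold-changes of −2.16 ± 0.27 and −2.68 ± 0.27 for COLO858, and of −1.58 ± 0.20 and −1.88 ± 0.20 for MMACSF.

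The neighbors of MTHFD2 in folate metabolism fell with smaller values. SHMT2, which splits serine inside mitochondria, fell in COLO858 by 1.12 and 1.52 on the log2 scale (limma adjusted p = 0.00443 and 0.00213). In MMACSF SHMT2 fell by 0.81 and 0.80 (limma adjusted p = 0.00992 and 0.00813), calls that were lost under rescaling of the libraries or with genes of every level tested. The cytosolic enzyme MTHFD1 fell by 1.14 and 1.15 in COLO858 (limma adjusted p = 0.00480 and 0.00504) and by 1.10 and 0.85 in MMACSF (limma adjusted p = 0.00530 and 0.00831). The MTHFD1 call in MMACSF at 48 h was lost with genes of every level tested. The mitochondrial relative MTHFD2L stayed at mean levels between 0.193 and 1.10 FPKM in the 6 groups.

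**Figure D2:**
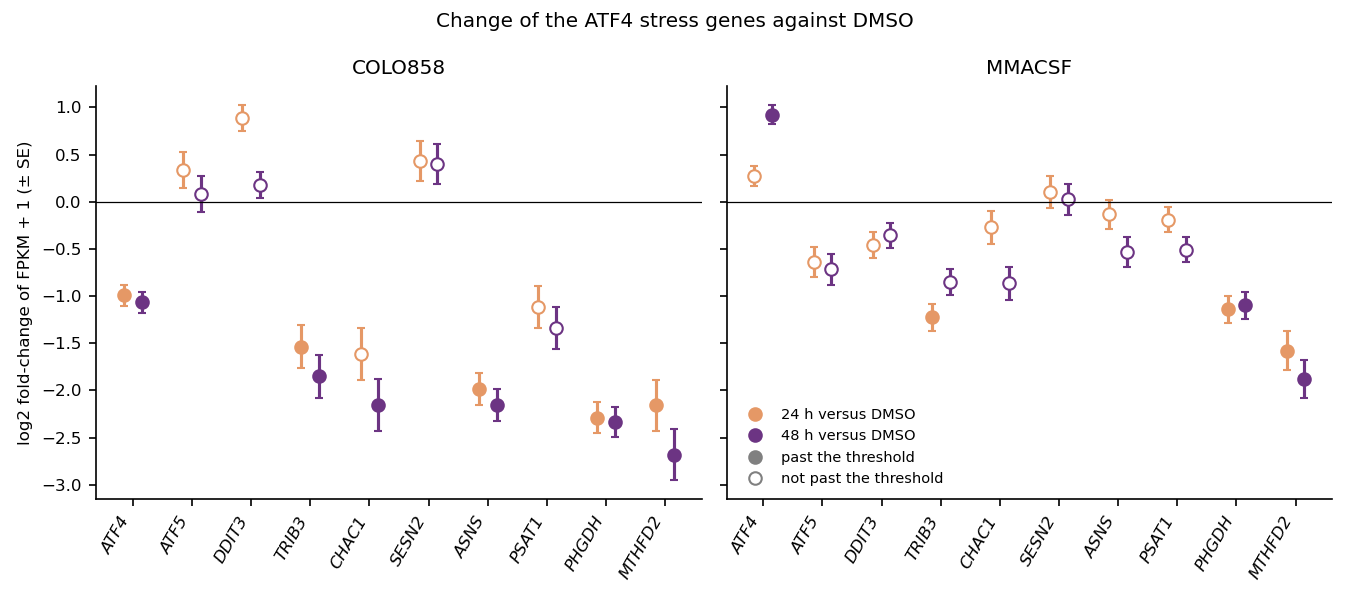
Log2 fold-change of FPKM + 1 against DMSO (vertical axis, ± SE) for the 10 genes (horizontal axis) in COLO858 (left) and MMACSF (right), at 24 h (orange) and 48 h (purple). Filled points are past the adjusted p of 0.01 over all genes; MTHFD2 at −2.68 is lowest in COLO858 and ATF4 at 0.92 highest in MMACSF.

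The libraries of a line were fitted with limma separately from the other line, and a call required a Benjamini-Hochberg adjusted p below 0.01 over all genes tested. All 10 genes passed the minimum of 1 FPKM in some group of each line. For COLO858 at 24 h, 4.11% of all tested genes were called higher and 5.71% lower, and of the 10 genes 0 were higher and 5 lower. The 5 were ATF4, TRIB3, ASNS, PHGDH, and MTHFD2. At 48 h, 4.74% of all genes were higher and 4.73% lower, and CHAC1 joined these 5 for 6 genes called lower, with 0 called higher. The median log2 fold-change of the 10 genes was −1.32 at 24 h and −1.59 at 48 h, beside 0.06 and −0.01 over all genes. These counts belong to the contrasts from which the genes were chosen, so nothing is read from them.

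For MMACSF at 24 h, 2.22% of all tested genes were called higher and 3.60% lower, and of the 10 genes 0 were higher and 3 lower, namely TRIB3, PHGDH, and MTHFD2. At 48 h, 3.42% of all genes were higher and 5.41% lower. ATF4 was then called higher and PHGDH and MTHFD2 lower. The median of the 10 genes was −0.36 and −0.62, beside 0.07 and 0.06 over all genes. From 24 to 48 h, 0 of the 10 genes passed limma's threshold in either line, which does not show that they were unchanged. Over all genes that step had 1.17% higher and 0.213% lower in COLO858, and 0.111% in each direction in MMACSF.

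When any 1 library of a comparison with DMSO was left out, 0 of the 10 genes stayed past the threshold, while every called fold-change kept its sign. Calls over all genes dropped at the same time, from 1247 to between 114 and 154 in COLO858 at 24 h and from 734 to between 58 and 72 in MMACSF. With genes of every level tested, the 3 calls in MMACSF at 24 h were lost, as were TRIB3 at 24 h and CHAC1 at 48 h in COLO858. TRIB3 at 24 h in COLO858 was also lost under rescaling, and CHAC1 at 48 h with 0.1 FPKM added. DDIT3 and PSAT1 at 24 h and PSAT1 at 48 h in COLO858 were gained under median-ratio rescaling, as was TRIB3 at 48 h in MMACSF. Without small RNA genes DDIT3 and CHAC1 at 24 h and PSAT1 at 48 h were gained in COLO858 and TRIB3 at 48 h in MMACSF.

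The proliferation marker MKI67 moved beside these genes, and its part in the result was not tested. In COLO858 it stood at 15.9 and 19.8 FPKM in DMSO, 2.47 and 2.91 after 24 h, and 10.9 and 12.5 after 48 h. In MMACSF it stood at 10 and 11, then 1.04 and 1.37, then 0.0430 and 0.0852 FPKM. It thus returned toward its DMSO level at 48 h in COLO858, where TRIB3, CHAC1, ASNS, PHGDH, and MTHFD2 stayed low. In bulk RNA, fewer cells expressing a gene and less RNA of it per cell cannot be told apart.

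Differences between the lines were taken as the log2 fold-change in COLO858 minus that in MMACSF, in a limma model of all 12 libraries. Over all genes 1.78% were called higher and 1.93% lower in COLO858 at 24 h, and 4.19% and 3.30% at 48 h. At 24 h ATF4 differed by −1.27 ± 0.12 and ASNS by −1.86 ± 0.20, both called lower, and DDIT3 by 1.34 ± 0.17, called higher. At 48 h ATF4 differed by −1.99 ± 0.12, ASNS by −1.62 ± 0.20, and PHGDH by −1.24 ± 0.21, all called lower. ATF4 and ASNS stayed past the threshold at both times when each of the 8 libraries involved was left out in turn. DDIT3 kept its call in 3 of 8 such fits and PHGDH in 1 of 8, and rescaling also ended the PHGDH call. The ASNS difference at 48 h was lost with 0.1 FPKM added, and its MMACSF side rests on levels near 1 FPKM.

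The other members did not pass the threshold for a difference between the lines. CHAC1 differed by −1.35 ± 0.33 at 24 h and −1.29 ± 0.33 at 48 h, and PSAT1 by −0.92 ± 0.26 and −0.82 ± 0.26. TRIB3 had −0.31 ± 0.27 and −1.0 ± 0.27, and MTHFD2 −0.58 ± 0.36 and −0.80 ± 0.36. The values of ATF5 were 0.97 ± 0.23 and 0.80 ± 0.23, and those of SESN2 were 0.33 ± 0.27 and 0.37 ± 0.27. The median difference of the 10 genes was −0.75 at 24 h and −0.91 at 48 h, beside −0.01 and −0.04 over all genes.

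The members can also be ordered by their level in DMSO, which FPKM gives per length of transcript. In COLO858 ATF4 led with a mean of 473 ± 17.1 FPKM (SD, n = 2), followed by PHGDH at 126 ± 8.09, PSAT1 at 100.1 ± 16.8, MTHFD2 at 87.8 ± 23.4, and ASNS at 82.4 ± 13.4. TRIB3 at 40.3 ± 4.44, DDIT3 at 15.5 ± 1.23, and CHAC1 at 7.92 ± 0.574 came next, with SESN2 at 5.80 ± 1.44 and ATF5 at 5.31 ± 1.37 last. The neighbors PSAT1 and MTHFD2, MTHFD2 and ASNS, and SESN2 and ATF5 overlapped between replicates. In MMACSF the order was ATF4 at 231 ± 15.2, PSAT1 at 139 ± 15.0, DDIT3 at 112 ± 15.3, PHGDH at 90.1 ± 9.68, and MTHFD2 at 30.6 ± 5.74. TRIB3 at 11.1 ± 1.04, SESN2 at 7.06 ± 0.637, ATF5 at 5.41 ± 0.128, CHAC1 at 4.46 ± 0.493, and ASNS at 1.23 ± 0.206 completed it, with no overlap between neighbors. ASNS thus stood among the serine and folate enzymes in COLO858 and last in MMACSF, whereas DDIT3 stood below TRIB3 in COLO858 and above PHGDH in MMACSF.

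Over the 6 libraries of a line, 6 of the 9 other genes had a positive correlation with ATF4 in COLO858 and 1 of 9, SESN2, in MMACSF. In COLO858 Pearson's r of log2(FPKM + 1) with ATF4 was 0.998 for ASNS, 0.983 for MTHFD2, 0.982 for PHGDH, 0.967 for PSAT1, 0.947 for CHAC1, and 0.946 for TRIB3. It was negative for SESN2, DDIT3, and ATF5, at −0.817, −0.580, and −0.501. In MMACSF r was −0.987 for ASNS, −0.943 for PSAT1, −0.938 for CHAC1, −0.816 for MTHFD2, and −0.758 for ATF5. It was −0.680 for PHGDH, −0.479 for DDIT3, −0.474 for TRIB3, and 0.038 for SESN2. The points are libraries of 3 conditions in 1 line with shared processing, so these correlations mainly describe the group means. The genes were chosen from these same values and the share over all genes is not given, so nothing is read from the counts.

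Genes outside the lists were ranked by how closely they followed the mean profile of the 10 genes, each centered on its mean within a line. Among 11606 such genes over 12 libraries, AARS2 had the highest Pearson's r at 0.993, followed by LINC00326 at 0.992, SPATS1 at 0.991, and SCFD2 and AP1S1 at 0.990. GALNTL4, FAM216A, FAM108C1, DPAGT1, and KARS completed the first 10, with KARS at 0.980. Mean levels of AARS2 in COLO858 went from 19.4 FPKM in DMSO to 10.7 and 8.92, and in MMACSF from 15.8 to 11.3 and 11.1.

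The wider pathway was followed with lists of 73 other genes, of which 68 could be tested in each line. These lists were also chosen with earlier results of these data known. Their counts and adjusted p-values therefore describe the genes and are no independent test of the pathway. In COLO858 2 rose and 18 fell at 24 h, beside 4.11% and 5.71% of all genes tested. At 48 h 3 rose and 15 fell, beside 4.74% and 4.73%. In MMACSF 3 rose and 8 fell at 24 h, beside 2.22% and 3.60% of all genes. There 3 rose and 18 fell at 48 h, beside 3.42% and 5.41%. From 24 to 48 h 2 of 68 rose in COLO858, beside 1.17% of all genes, and 1 did so with genes of every level tested. TYMS, which makes thymidylate for DNA synthesis, was among the 2 and rose by 2.46 ± 0.15 (limma adjusted p = 0.00369). Its call was lost when any of the 4 libraries compared was left out. At that step 0 of 68 passed limma's threshold in MMACSF, with 13 at an unadjusted p below 0.05. Without 1 library, at most 1 of these pathway genes stayed past the threshold in any comparison with DMSO, as did 0 of the called TRIB, CHAC, and SESN relatives, and the counts below rest on all libraries. The median log2 fold-changes of those tested were −0.28 and −0.49 for COLO858, and −0.39 and −0.48 for MMACSF. The medians over all genes were 0.06 and −0.01 for COLO858, and 0.07 and 0.06 for MMACSF.

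**Figure D3:**
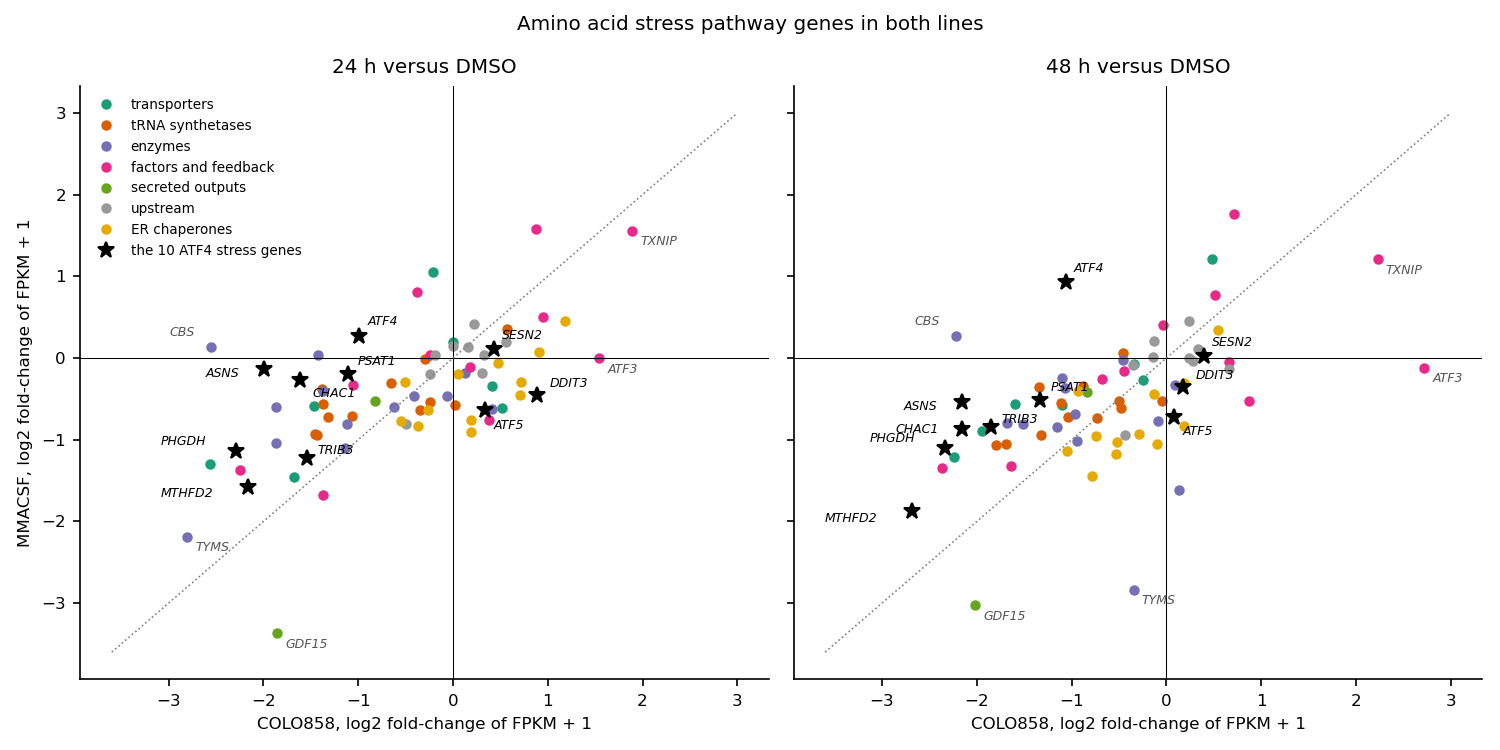
Log2 fold-change of FPKM + 1 against DMSO in COLO858 (horizontal axis) and MMACSF (vertical axis) at 24 h (left) and 48 h (right); each point is a pathway gene tested in both lines, colored by list. Black stars are the 10 ATF4 stress genes and the dotted line marks equal change; ATF4 is at −1.06 and 0.92 at 48 h, and ATF3 at 2.72 and −0.12.

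Of 8 amino acid transporters tested in COLO858, 2 fell at 24 h and 3 at 48 h with 0 rising, beside 5.71% and 4.73% of all genes falling. Of 7 in MMACSF 2 fell and 1 rose at both times. Of all genes there, 3.60% and then 5.41% fell, and 2.22% and then 3.42% rose. The transporters that fell were SLC1A5 and SLC7A1 in each case, with SLC38A1 added in COLO858 at 48 h, and the one that rose was SLC1A4. SLC1A5, a carrier of glutamine and other neutral amino acids, fell from 157 ± 23.8 FPKM (SD, n = 2) to 25.7 ± 3.51 and 32.4 ± 4.0 in COLO858. Its log2 fold-changes were −2.57 ± 0.18 and −2.24 ± 0.18 (limma adjusted p = 0.00139 and 0.00196), against −1.30 ± 0.12 and −1.21 ± 0.12 in MMACSF (limma adjusted p = 0.00378 and 0.00354). SLC7A1, which carries arginine and lysine, fell by 1.46 in MMACSF at 24 h (limma adjusted p = 0.00266). SLC1A4, a carrier of alanine, serine, and cysteine, rose in MMACSF from 88.0 ± 8.46 to 185 ± 24.1 and 205 ± 14.2 FPKM (limma adjusted p = 0.00923 and 0.00523). In COLO858 SLC1A4 stayed between mean levels of 0.886 and 2.06 FPKM, and its fold-changes in the lines differed at 24 h by −1.27 (limma adjusted p = 0.00500). The cystine carrier SLC7A11, named after its values were seen, had log2 fold-changes of −1.82 and −1.89 in COLO858 that narrowly missed the threshold (limma adjusted p = 0.0111 and 0.0102) and passed it under rescaling and without small RNA genes. The calls in MMACSF of SLC1A4 at 24 h and SLC7A1 at 48 h were lost with genes of every level tested, and the SLC1A4 difference kept its call in 1 of 8 fits that left out a library.

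Aminoacyl-tRNA synthetases, which load amino acids onto tRNA, were lower in part of the list. Of 12 tested, 6 fell at 24 h and 6 at 48 h in COLO858, beside 5.71% and 4.73% of all genes. In MMACSF 1 and then 3 fell, beside 3.60% and 5.41%, and 0 rose in either line. In COLO858 the synthetases that fell were AARS, CARS, GARS, IARS, MARS, and YARS at both times. GARS, for glycine, fell in COLO858 by 1.46 ± 0.13 on the log2 scale at 24 h (limma adjusted p = 0.00244) and in MMACSF by 0.93 ± 0.11 (limma adjusted p = 0.00618). YARS, for tyrosine, fell by 1.80 ± 0.13 in COLO858 at 48 h (limma adjusted p = 0.00155) and by 1.07 ± 0.16 in MMACSF (limma adjusted p = 0.00958). The YARS call in MMACSF was lost under rescaling and with genes of every level tested. The difference between the lines passed the threshold for 1 of these 12, CARS, for cysteine, at −1.01 and −0.99 (limma adjusted p = 0.00615 and 0.00385), and both calls were lost under rescaling and in each fit that left out a library.

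Enzymes of serine, glycine, folate, proline, and sulfur amino acid metabolism fell in 8 of 13 tested at 24 h and 4 of 13 at 48 h in COLO858. Of all genes in COLO858, 5.71% and then 4.73% fell. In MMACSF 3 and 5 of 14 fell, beside 3.60% and 5.41% of all genes, and 0 rose in either line. MTHFD1 and SHMT2 fell in all 4 comparisons, PYCR1 and CBS in both of COLO858, and TYMS in both of MMACSF. TYMS, thymidylate synthase, fell in COLO858 by 2.80 ± 0.15 at 24 h (limma adjusted p = 0.000826) and stood at −0.35 ± 0.15 at 48 h (limma adjusted p = 0.161). In MMACSF TYMS fell by 2.19 ± 0.13 and 2.84 ± 0.13 (limma adjusted p = 0.00122 and 0.000418). CBS, which begins cysteine synthesis from homocysteine, fell in COLO858 from 31.1 ± 6.24 FPKM (SD, n = 2) to 4.59 ± 1.92 and 5.84 ± 0.50. Its log2 fold-changes were −2.55 ± 0.29 and −2.22 ± 0.29 (limma adjusted p = 0.00413 and 0.00652). In MMACSF CBS had values of 0.14 ± 0.28 and 0.27 ± 0.28, and the lines differed by −2.69 and −2.49 (limma adjusted p = 0.00721 and 0.00625). Both differences lost their call under rescaling of the libraries, and with a library left out they kept it in 1 of 8 fits at 24 h and 0 of 8 at 48 h. The call was also lost for the COLO858 fall at 48 h with genes of every level tested. TYMS and MKI67 share the return at 48 h in COLO858, and the relation was not tested.

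Stress factors and feedback genes moved in both directions. Of 11 tested in COLO858, 2 rose and 1 fell at 24 h, and 3 rose and 1 fell at 48 h. Of 12 in MMACSF, 2 rose and 1 fell at both times. Among all genes in COLO858, 4.11% rose and 5.71% fell at 24 h, and 4.74% and 4.73% at 48 h. For MMACSF these shares were 2.22% and 3.60%, then 3.42% and 5.41%. The gene added at 48 h in COLO858 was SQSTM1, an autophagy receptor, at 0.88 ± 0.11 (limma adjusted p = 0.00620), a call that was lost under rescaling. In MMACSF SQSTM1 had values of −0.76 and −0.52, which missed the threshold, and the first passed it without small RNA genes. The SQSTM1 difference between the lines passed the threshold at both times, by 1.15 and 1.40, and did so under rescaling as well. ATF3, a stress-induced repressor downstream of ATF4 and of other pathways, rose in COLO858 from 3.16 ± 0.853 FPKM (SD, n = 2) to 11.1 ± 1.88 and 26.2 ± 2.91. Its log2 fold-changes were 1.54 ± 0.22 and 2.72 ± 0.22 (limma adjusted p = 0.00772 and 0.00182). In MMACSF ATF3 stayed between 4.53 and 4.99 FPKM, and the lines differed by 1.55 and 2.84 (limma adjusted p = 0.00924 and 0.000296). The 24 h calls of ATF3 were lost with genes of every level tested, that of the difference also with 0.1 FPKM added, while its difference between the lines at 48 h held with each library left out. TXNIP, which binds thioredoxin and limits glucose uptake, rose by 1.89 ± 0.18 in COLO858 at 24 h (limma adjusted p = 0.00273) and by 1.56 ± 0.14 in MMACSF (limma adjusted p = 0.00312). VLDLR, a lipoprotein receptor, rose in MMACSF by 1.57 ± 0.14 and 1.76 ± 0.14 (limma adjusted p = 0.00270 and 0.00157).

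EIF4EBP1 encodes 4E-BP1, which restrains cap-dependent translation, and it fell in both lines. It went from 597 ± 132 FPKM (SD, n = 2) to 124 ± 23.4 and 114 ± 20.4 in COLO858 and from 91.5 ± 19.0 to 34.3 ± 0.983 and 35.1 ± 1.73 in MMACSF. For EIF4EBP1 the log2 fold-changes were −2.25 ± 0.24 and −2.37 ± 0.24 (limma adjusted p = 0.00358 and 0.00337) and −1.37 ± 0.17 and −1.34 ± 0.17 (limma adjusted p = 0.00670 and 0.00566).

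Among secreted outputs, 1 of 3 tested fell in COLO858 at both times, beside 5.71% and 4.73% of all genes. In MMACSF 0 of 2 fell, where 2 and then 1 had an unadjusted p below 0.05. The output that fell was ADM2, a peptide hormone, with log2 fold-changes of −0.99 ± 0.14 at both times (limma adjusted p = 0.00855 and 0.00908). Its calls were lost when 0.1 FPKM was added in place of 1 and with genes of every level tested. GDF15, a stress hormone sensed in the brainstem and named here after its values were seen, stood at 2786 and 1429 FPKM in DMSO in COLO858. It was at 840 and 361 FPKM after 24 h and at 692 and 347 after 48 h. In MMACSF GDF15 went from 857 and 426 to 87.0 and 38.0 and then 101 and 52.9 FPKM. Replicate 1 was higher than replicate 2 in every group, and the log2 fold-changes of −1.86 ± 0.57 and −2.02 ± 0.57 in COLO858 and −3.37 ± 0.55 and −3.03 ± 0.55 in MMACSF missed the threshold, with limma adjusted p between 0.0146 and 0.0685. Both MMACSF values passed it without small RNA genes.

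The eIF2 kinases and other upstream genes were not called by limma in either line, in 0 of 9 at each time, with 1 of 9 at an unadjusted p below 0.05 in each comparison with DMSO. EIF2AK4, the GCN2 kinase that senses uncharged tRNA, was named after its values were seen. Its mean levels were 17.6 ± 1.37, 22.1 ± 1.42, and 28.6 ± 3.25 FPKM in COLO858 and 26.4 ± 2.5, 23.0 ± 0.00778, and 24.0 ± 1.12 FPKM in MMACSF (SD, n = 2). EIF2AK3, the PERK kinase of the endoplasmic reticulum, lay between 4.53 and 5.73 FPKM in all 6 groups. Kinase activity and eIF2 phosphorylation are not measured by RNA.

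Chaperones of the endoplasmic reticulum, a branch of the unfolded protein response driven mainly by other factors, were counted separately. In COLO858 limma called 0 of 12 at either time, with 6 at an unadjusted p below 0.05 at each. In MMACSF 1 of 12 fell at 24 h and 7 of 12 at 48 h, beside 3.60% and 5.41% of all genes. MANF, a secreted protein of this compartment, fell in MMACSF from 93.3 ± 0.510 FPKM (SD, n = 2) to 49.3 ± 0.470 and 33.7 ± 2.04 (limma adjusted p = 0.00634 and 0.00143). In COLO858 MANF had log2 fold-changes of 0.19 ± 0.13 and −0.79 ± 0.13 (limma adjusted p = 0.329 and 0.0123). HSPA5, the chaperone BiP, named after its values were seen, had a mean of 309 ± 24.3 FPKM at 24 h in COLO858 against 189 ± 24.7 in DMSO. In MMACSF HSPA5 fell from 220 ± 16.7 to 106 ± 0.951 FPKM at 48 h (limma adjusted p = 0.00342). The lines differed past the threshold at 24 h for 4 of 12 chaperones, namely HSPA5, MANF, HERPUD1, and HYOU1, and at 48 h for CALR. The values were from 0.95 to 1.15 and 1.02, all toward higher in COLO858, beside 1.78% and 4.19% of all genes called higher. With a library left out, the 24 h difference kept its call in 2 of 8 fits for MANF and 0 of 8 for HSPA5.

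Sequence relatives limit some of these values. The annotation lists 4 pseudogenes for ATF4, 5 for ASNS, 4 for PSAT1, and 7 for MTHFD2, and 0 for the other 6 genes. How the counting divided reads shared with such copies is not given in the sources used here, so the levels of these 4 genes are uncertain by that amount. Other annotated genes overlap members. On the same strand, where a stranded library cannot separate them, ENSG00000284707, a long noncoding RNA, shares 20855 bases with ASNS, and ENSG00000285133, listed as protein-coding, shares 2769 with DDIT3. On the opposite strand ENSG00000269179 covers 5234 bases of ATF5 and ENSG00000264324 covers 5962 of MTHFD2, both listed as protein-coding. ATF5, at chr19:50431959-50437192 on the plus strand, shares 1063 bases with NUP62 and 838 with IL4I1, and MTHFD2, at chr2:74413299-74444692 on the plus strand, shares 1324 bases with SLC4A5. The remaining genes lie at chr20:343479-378203 on the plus strand for TRIB3, chr15:41245160-41248710 on the plus strand for CHAC1, and chr1:28586029-28609002 on the plus strand for SESN2. PSAT1 is at chr9:80912041-80945009 and PHGDH at chr1:120191034-120286841, both on the plus strand.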

How the data were processed

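The 10 genes and the pathway lists were chosen with earlier results of these data known. Per the submitters' processing notes and the paper's methods, the authors aligned single reads to hg19 with TopHat and quantified genes by Cuffdiff; program versions, annotation, strand setting, and library scaling are not given in the sources used here. The FPKM values deposited by the authors, in 1 table per line, were used as they are, and 0 columns were left out.

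Values were analyzed as log2(FPKM + 1) with limma 3.58.1 in R 4.3.3, with empirical Bayes moderation and a mean-variance trend. Each line was fitted over its 6 libraries in 3 groups, and differences between lines over 12 libraries in 6 groups. A gene was tested if 1 FPKM was reached as the mean of any group, two-sided, with Benjamini-Hochberg adjustment over all genes tested and a threshold of 0.01. The adjusted p covers 12696 genes in COLO858, 12599 in MMACSF, and 13595 in the difference. Fold-changes on this scale understate the change of low genes. Depth cannot be recovered from FPKM, so no counting interval is given. The procedure was tested on simulated data in which libraries varied independently. That test does not cover the shared deviations of same-numbered libraries.

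All members are named, together with the pathway gene of each list with the largest change past the threshold per direction and comparison with DMSO, and SESN1, SESN3, CHAC2, TRIB1, TRIB2, MTHFD2L, MTHFD1, PSPH, and SHMT2 as relatives or neighbors of members. The other pathway genes named, which account for a count or are given for comparison, were chosen after their values were seen. Alternatives were adding 0.1 FPKM, no minimum level, median-ratio rescaling, leaving out small RNA genes, the replicate number as a block, and leaving out each library. Positions are from GENCODE v44 lifted to GRCh37, and promoters from RefSeq on GRCh38.p14.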

Additional observations from a re-analysis of the deposited data

Results flagged for a closer look

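By the interaction over all 12 libraries, 4 of the 10 genes passed the threshold for a difference between the lines at 24 h, at 48 h, or at both. Among all genes tested, 1.78% were called higher and 1.93% lower in COLO858 at 24 h, and 4.19% and 3.30% at 48 h. For ATF4 the log2 fold-change in COLO858 minus that in MMACSF was −1.27 at 24 h and −1.99 at 48 h. For ASNS it was −1.86 and −1.62. DDIT3 stood out at 24 h only by this threshold, at 1.34, and PHGDH at 48 h only, at −1.24. The PHGDH call was lost under rescaling, and the ASNS call at 48 h with 0.1 FPKM added. Because the genes were chosen with these libraries in view, the values are a description. The groups hold 2 libraries each, so no search for a single outlying library within a group was made.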

How the results depend on the processing

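Read depth is unknown, and each group has 2 libraries, so few degrees of freedom stand behind a call. Across alternatives, 733 of the values of the 10 genes moved by less than 1 SD and 67 by more, and no called value changed sign. Of the named pathway genes, 1191 values kept their side of the threshold outside the fits that left out a library, 83 passed it newly, and 41 lost it. With each library left out in turn, the members called against DMSO were 0 in every comparison (5, 6, 3, and 3 with all libraries) and 0 from 24 to 48 h. For the difference between the lines they were 2 to 3 at both times. The other pathway genes then numbered 0 to 1 in COLO858 at 24 h, 0 at 48 h and from 24 to 48 h, and in MMACSF 0 at 24 h, 1 at 48 h, and 0 from 24 to 48 h. For the difference they were 1 to 4 at 24 h and 3 to 5 at 48 h. Such a fit has 1 library in an arm, assumed to vary like the other groups, and fewer genes over the whole table were called in every comparison except MMACSF from 24 to 48 h, where 23 to 46 were called beside 28 with all libraries. Replicate numbers are shared across groups without a stated meaning. Deviations of same-numbered libraries correlated at 0.196 to 0.211 in COLO858 and 0.0628 to 0.113 in MMACSF, and without small RNA genes at 0.753 to 0.779 and 0.590 to 0.673. With a replicate block the members past the threshold were 8 in COLO858 at 24 h, 1 from 24 to 48 h, 7 in MMACSF at 48 h, and 5 and 6 for the difference at 24 and 48 h. The other pathway genes with the replicate block were 49, 46, and 22 in COLO858 at 24 h, at 48 h, and from 24 to 48 h, 38, 41, and 1 in MMACSF, and 36 and 40 for the difference. Calls over all genes grew too with the block, to 45.0%, 43.7%, and 18.0% of those tested in COLO858, 26.1%, 30.1%, and 0.254% in MMACSF, and 17.6% and 25.3% for the difference, so nothing is read from the members' counts. GDF15, in which replicate 1 was the higher in every group, passed the threshold with the block in all 4 comparisons with DMSO. With no minimum level the members called in MMACSF at 24 h were 0 and the other pathway genes from 24 to 48 h in COLO858 were 1. Without small RNA genes the latter were 4, and the pathway genes in MMACSF at 24 h 17. With 0.1 FPKM added, 8 pathway genes differed between the lines at 24 h. Beyond the fits with fewer libraries, the cause of these shifts was not tested.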
